A study of Homo sapiens with 6 samples.

Results

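The 10 genes described here encode enzymes that make serine, pass its carbon to folate and make asparagine: PHGDH, PSAT1, PSPH, SHMT1, SHMT2, MTHFD1, MTHFD2, MTHFD1L, ALDH1L2 and ASNS. They were taken by symbol, and all 10 were among the 16809 genes of the deposited expression table and among the 11927 that passed the filter on low values. The libraries came from CAL-27, a line grown from a squamous carcinoma of the tongue, with 3 control libraries and 3 libraries of cells that had received elesclomol together with copper in equal parts (ES-Cu) for 24 h. Elesclomol is an ionophore that ferries copper into the cell, and the pair is used to set off cuproptosis, a copper-driven form of cell death. The labels give no dose, vehicle or culture time for the controls, and no genetic change in either group. All cells were of 1 line, and nothing states that the libraries came from separate cultures, so the p-values reflect library-to-library spread alone, which may be technical.

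Cells make serine from the glycolytic intermediate 3-phosphoglycerate in consecutive steps run by PHGDH, PSAT1 and PSPH. The SHMT enzymes then split serine into glycine and a one-carbon unit carried by tetrahydrofolate, SHMT1 in the cytosol and SHMT2 in mitochondria, and the MTHFD and ALDH1L enzymes oxidise, reduce or release that unit for purine and thymidylate synthesis and for NADPH. ASNS makes asparagine from aspartate and glutamine. Several of these genes are textbook targets of ATF4, the transcription factor of the integrated stress response, and tumour cells often express them at high levels.

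Values are TPM, each gene's share of the transcripts of a library after division by gene length, so that levels of different genes can be compared within a library. Sequencing depth is unknown, since TPM keeps no read totals. Fold changes and adjusted p-values come from limma-trend on log2(TPM + 1) with Benjamini-Hochberg adjustment over all tested genes, and the pseudocount of 1 understates changes of low genes. Of the tested genes 83.7% were called at an adjusted p under 0.05, 13.6% higher and 70.0% lower in ES-Cu, and the median gene stood at -0.50 on the log2 scale. After scaling by the median of ratios the shares were 38.0% and 35.8%, with the median gene at 0.00. Quantile normalization gave 31.4% higher and 39.9% lower. A gene is said to have risen or fallen below only where it was called with one sign in the deposited TPM, after that scaling and after quantile normalization, which held for 13.5% of tested genes upwards and 31.2% downwards. All 8 squamous epithelial markers checked had a mean of at least 1 TPM, with a summed level of 2521 to 2643 TPM in control and 2927 to 2977 TPM in ES-Cu. The higher sum came from SFN (605 to 664 TPM in control and 1212 to 1247 TPM in ES-Cu), and without it the sum was 1916 to 1979 TPM in control and 1706 to 1736 TPM in ES-Cu. CDH1 went from between 171 and 176 TPM to between 68.1 and 74.0 TPM, TP63 from between 85.4 and 88.1 TPM to between 23.5 and 25.3 TPM, and KRT17 from between 368 and 385 TPM to between 277 and 288 TPM. KRT6A was higher in ES-Cu, at 171 to 178 TPM in control and 226 to 239 TPM in ES-Cu. KRT5, at 830 to 876 TPM in control and 837 to 878 TPM in ES-Cu, overlapped between the groups. EPCAM was at 269 to 277 TPM in control and 241 to 260 TPM in ES-Cu. KRT14 was low, at 2.93 to 5.16 TPM over the 6 libraries. Leukocyte markers summed to at most 1.14 TPM. The endothelial list summed to 7.14 to 7.47 TPM in control and 1.28 to 1.87 TPM in ES-Cu, nearly all of it CDH5, with PECAM1 at most 0.15 TPM. The fibroblast list summed to 11.1 to 11.5 TPM and 4.46 to 5.14 TPM, with COL3A1 at most 0.04 TPM. The part of these markers in the results was not tested.

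Asparagine synthetase, the second enzyme of serine synthesis and the mitochondrial folate dehydrogenase had the largest rises of the 10 genes. ASNS rose 3.40-fold, PSAT1 2.63-fold and MTHFD2 1.84-fold as ratios of mean TPM, PHGDH rose less, at 1.23-fold, and SHMT1 fell to 0.486 of its control level. On the deposited scale 5 of the 10 were called higher, against 13.6% of all tested genes, and 4 were called lower, against 70.0%. The same 5, ASNS, PSAT1, MTHFD2, PHGDH and MTHFD1L, were higher in all 3 scalings, while of the 4 called lower SHMT1 kept that call in all 3 and PSPH, SHMT2 and MTHFD1 did not. The ES-Cu libraries lay wholly above the controls for 4 genes (14.0% of tested genes) and wholly below for 4 (70.3%). In bulk RNA, fewer cells that express a gene and less of its RNA per cell cannot be told apart. The median log2 fold change of the 10 genes was 0.03, beside -0.50 for all tested genes. Together the 10 genes held 1067, 1077 and 1056 TPM in the control libraries and 1443, 1403 and 1453 TPM in ES-Cu. That is 1.34 times the control mean (two-sided exact permutation p = 0.1, which is the lowest value possible with 3 libraries on each side).

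**Figure D1:**
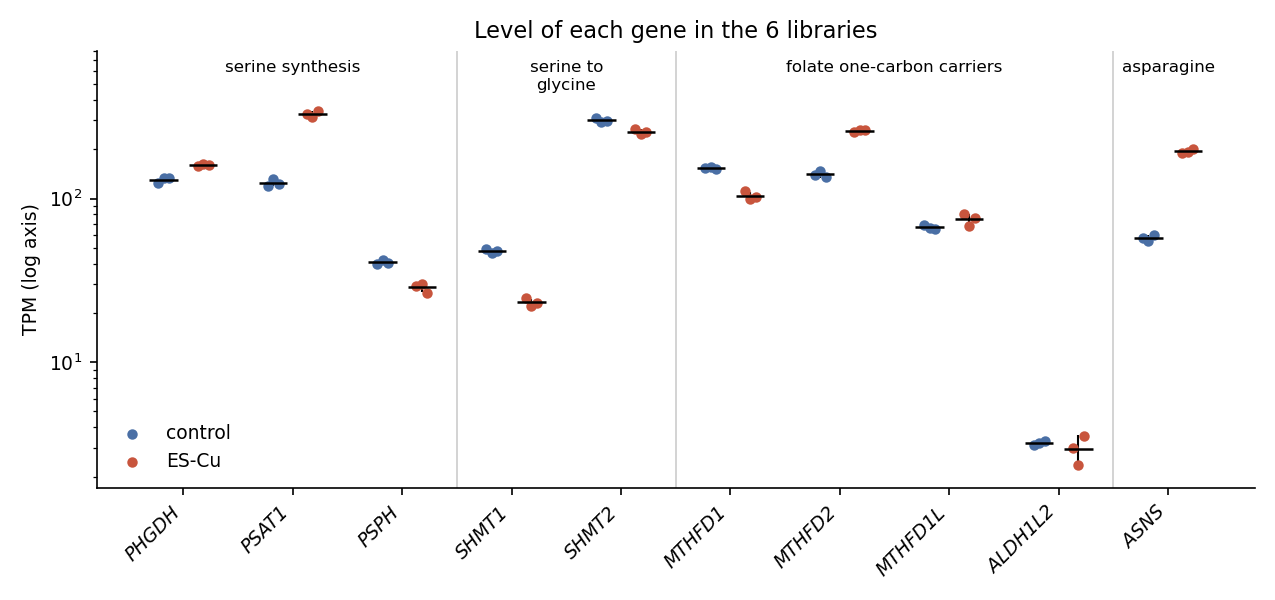
TPM of each of the 10 genes on a log axis, with 1 point per library, the mean as a bar and ± 1 SD as a vertical line (n = 3 per group). The groups lie apart for 8 genes and overlap for MTHFD1L and ALDH1L2.

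The known control elements of ASNS were looked up in its promoter, since it had the largest rise of the set, and the same letters were searched in the others. RefSeq promoter windows (GRCh38.p14, from 250 bases before to 50 after the start site) were matched for 7 of the 10 genes (not for PSPH, SHMT2 and ALDH1L2). The letters TGATGNAA, the core of the C/EBP-ATF response element to which ATF4 binds with C/EBP partners, were searched on both strands. They occur in 3.62% of all 35116 windows, and among the matched genes in some windows of ASNS and MTHFD1L. The ASNS stretch below (chr7:97872449-97872478, minus strand, bases -70 to -41 from the start site) holds a match at -68 to -61, and the letters GTTACA, the second nutrient-sensing element of this promoter, at -48 to -43. GTTACA occurs in 6.66% of windows and both motifs together in 0.498%. The MTHFD1L stretch (chr6:150866346-150866375, plus strand) holds its match at -129 to -122 of the first listed start site. MTHFD1L has 4 windows, and 3 of them hold the same site, which in 1 of these lies 25 to 32 bases after the start site. ASNS has 2 windows, and only the first listed holds the match. Both stretches lie inside exons annotated in GENCODE 29. Capitals mark the matches.
ASNS: caTGATGAAActtcccgcacgcGTTACAgg
MTHFD1L: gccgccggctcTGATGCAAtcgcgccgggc
The PSAT1 promoter (chr9:78297005-78297124, plus strand, bases -120 to -1) is shown because PSAT1 had the largest rise among the serine synthesis genes, and it has no TGATGNAA in its window. It holds 3 CCAAT boxes in capitals, the letters bound by the general factor NF-Y. CCAAT occurs on either strand in 34.6% of windows and at least 3 times in 3.26%. Among the matched genes, CCAAT also occurs in windows of PHGDH, SHMT1, MTHFD1, MTHFD2 and MTHFD1L, whether or not the gene rose.
PSAT1: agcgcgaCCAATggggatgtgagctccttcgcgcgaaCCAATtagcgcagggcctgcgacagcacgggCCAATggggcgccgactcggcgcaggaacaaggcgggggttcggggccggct
A match describes these letters only, and binding was not measured.

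The serine synthesis genes did not move as one. PHGDH, the NAD-dependent dehydrogenase that commits 3-phosphoglycerate to serine, stood at 125, 133 and 134 TPM in control and at 157, 162 and 160 TPM in ES-Cu. All 3 ES-Cu libraries lay above all controls, and PHGDH rose by a log2 fold change of 0.29 ± 0.042 (SE; adjusted p = 5.7e-05, limma-trend). After median scaling the PHGDH value was 0.85, and under quantile normalization it was 0.48. PSAT1, the aminotransferase that takes nitrogen from glutamate, stood at 119, 132 and 123 TPM in control and at 329, 314 and 342 TPM in ES-Cu. The groups were far apart next to their spread, with a log2 fold change of 1.39 ± 0.049 (SE; adjusted p = 1.72e-09, limma-trend). PSAT1 ranked 189 of 11927 tested genes from the largest rise down. PSPH, the phosphatase that releases serine, was lower in all ES-Cu libraries, at 39.7, 42.3 and 40.2 TPM in control and 29.3, 30.04 and 26.6 TPM in ES-Cu. At -0.49 on the log2 scale PSPH lay 0.011 above the median gene. Median scaling took PSPH to 0.049 (adjusted p = 0.496, limma-trend) and quantile normalization to -0.11 (adjusted p = 0.115, limma-trend), neither of them called. The summed level of the 3 genes went from 296 ± 11.8 TPM (SD, n = 3) in control to 517 ± 11.9 TPM in ES-Cu.

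Of the enzymes that turn serine into glycine, the cytosolic SHMT1 fell and the mitochondrial SHMT2 changed sign with the scaling. SHMT1 stood at 48.9, 46.7 and 47.7 TPM in control and at 24.5, 22.2 and 22.9 TPM in ES-Cu. The ES-Cu libraries were all below the controls, with a log2 fold change of -1.01 ± 0.057 (SE; adjusted p = 3.95e-08, limma-trend), -0.47 after median scaling and -0.64 under quantile normalization. SHMT2, the most abundant of the 10 transcripts in control, stood at 311, 294 and 297 TPM there and at 265, 248 and 256 TPM in ES-Cu. Its groups did not overlap either, but the difference was small. The log2 fold change of SHMT2 was -0.23 ± 0.041 (SE; adjusted p = 2.91e-04, limma-trend) in the deposited TPM. It was 0.33 with median scaling (adjusted p = 2.86e-05) and -0.09 with quantile normalization (adjusted p = 0.0605, limma-trend). No direction is given for SHMT2.

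**Figure D2:**
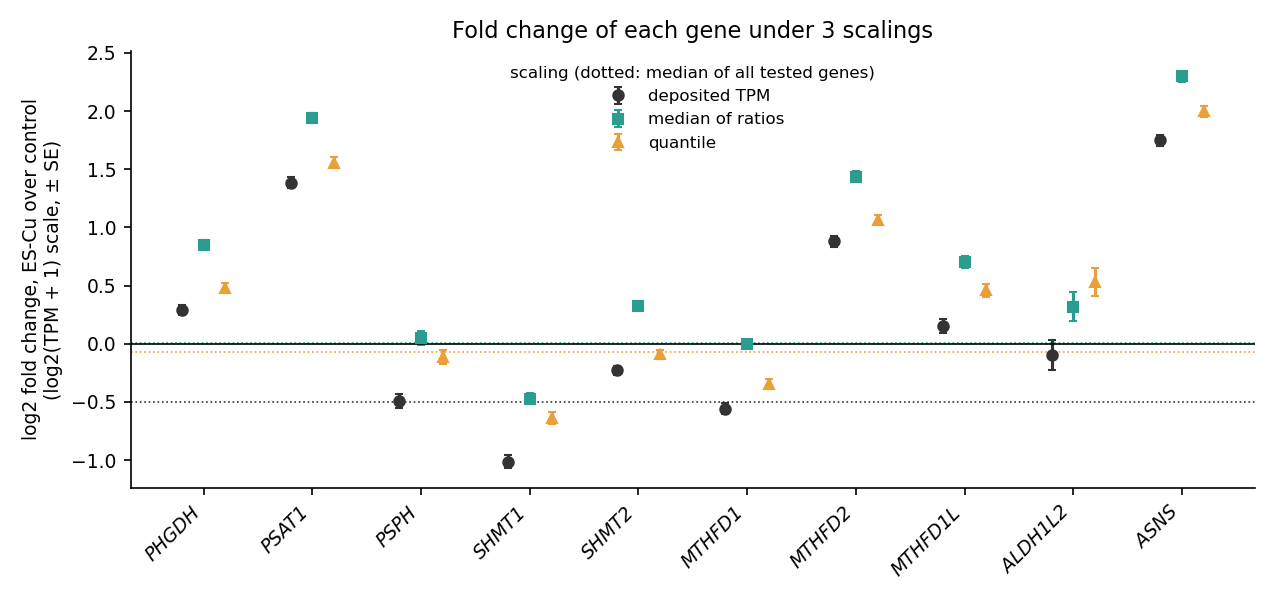
Log2 fold change of each gene, ES-Cu over control, with its SE in the deposited TPM (circles), after median-of-ratios scaling (squares) and after quantile normalization (triangles). Dotted lines mark the median of all tested genes, at -0.50, 0.00 and -0.07; ASNS, PSAT1 and MTHFD2 are above 0.8 in each scaling and SHMT1 is below 0 in each.

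Among the enzymes that carry the one-carbon unit on folate, MTHFD2 rose most. MTHFD2 is the mitochondrial methylenetetrahydrofolate dehydrogenase and cyclohydrolase, a gene of proliferating and tumour cells with little expression in most adult tissue. It stood at 139, 148 and 135 TPM in control and at 254, 263 and 261 TPM in ES-Cu. The lowest ES-Cu library lay well above the highest control, and the log2 fold change was 0.88 ± 0.044 (SE; adjusted p = 1.68e-08, limma-trend), rank 403 from the top of all tested genes. Of the exon bases annotated for MTHFD2, 33.2% lie under exons of genes on the other strand, and the one of these in the table, SLC4A5, was at 0.65 to 1.00 TPM in control and 0.18 to 0.46 TPM in ES-Cu. MTHFD1L, the mitochondrial enzyme that releases formate, stood at 69.1, 66.2 and 65.3 TPM in control and at 80.0, 68.1 and 75.9 TPM in ES-Cu. Its groups overlapped, since ES-Cu replicate 2 lay below control replicate 1. The log2 fold change of MTHFD1L was 0.15 ± 0.060 (SE; adjusted p = 0.0334, limma-trend), and 0.70 after median scaling. The call in the deposited TPM was lost when control replicate 2 (0.15, adjusted p = 0.0753) or control replicate 3 (0.14, adjusted p = 0.0961, limma-trend) was left out. The same happened with ES-Cu replicate 1 (0.10, adjusted p = 0.14) or ES-Cu replicate 3 (0.14, adjusted p = 0.0835, limma-trend) removed. It was also lost without the low-value filter (adjusted p = 0.0564) and without the variance trend (adjusted p = 0.0801, limma).

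MTHFD1, the trifunctional cytosolic enzyme that interconverts the same folate forms, was at 155, 157 and 151 TPM in control and at 111, 99.6 and 102 TPM in ES-Cu. Every ES-Cu library was below every control, yet its log2 fold change of -0.56 ± 0.048 (SE; adjusted p = 8.57e-07, limma-trend) was 0.055 below the median gene. Median scaling put MTHFD1 at -0.0055 (adjusted p = 0.909), whereas quantile normalization put it at -0.34 (adjusted p = 4.9e-05, limma-trend). ALDH1L2, the mitochondrial formyltetrahydrofolate dehydrogenase, was the lowest of the set at 3.12, 3.23 and 3.29 TPM in control and 2.99, 2.34 and 3.56 TPM in ES-Cu. Its libraries overlapped, and the log2 fold change of -0.10 ± 0.13 (SE; adjusted p = 0.481, limma-trend) did not pass the test. With median scaling ALDH1L2 was called higher (0.32, adjusted p = 0.0407), and likewise with quantile normalization (0.53, adjusted p = 0.00269, limma-trend). Without ES-Cu replicate 2 the deposited value for ALDH1L2 was 0.018 (adjusted p = 0.892, limma-trend).

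ASNS, the glutamine-dependent asparagine synthetase whose promoter elements are printed above, had the largest change of the set. It stood at 57.0, 55.1 and 60.0 TPM in control and at 190, 193 and 202 TPM in ES-Cu. The lowest ES-Cu library was more than 3 times the highest control. The log2 fold change of ASNS was 1.75 ± 0.047 (SE; adjusted p = 1.94e-10, limma-trend), 2.30 after median scaling and 1.996 under quantile normalization. It ranked 120 of 11927 tested genes from the top, and 2.69% of tested genes were called and at least 2-fold higher, among them ASNS and PSAT1 of the 10.

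**Figure D3:**
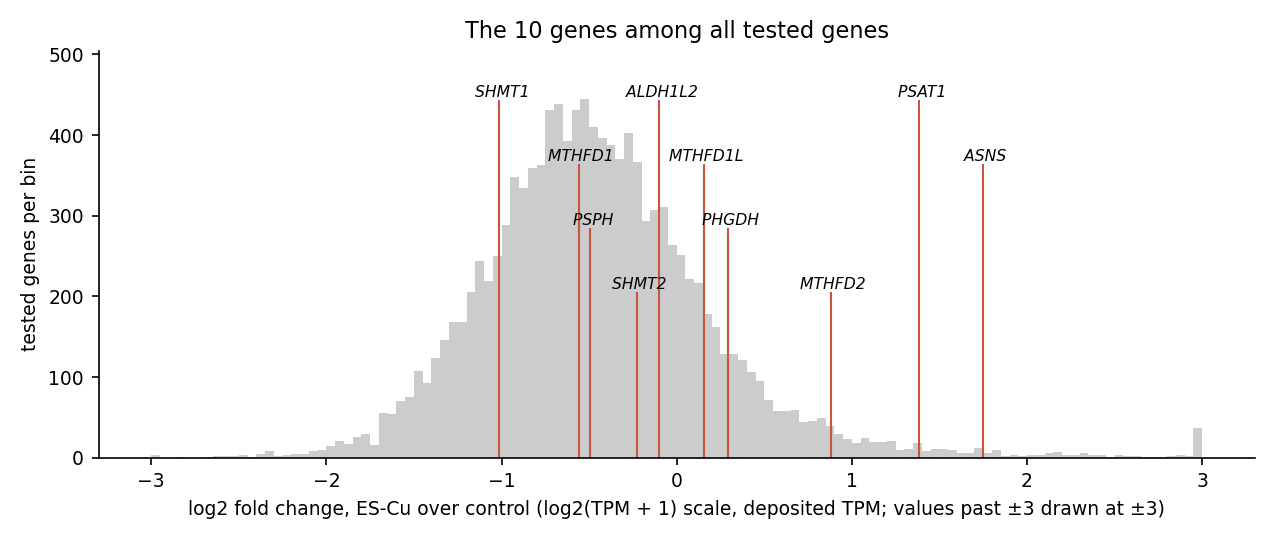
Histogram of log2 fold changes of the 11927 tested genes in the deposited TPM (values past ±3 drawn at the ends), with a line for each of the 10 genes; line heights only separate the names. PSPH and MTHFD1 lie at the middle of the distribution, SHMT1 in its lower part, and MTHFD2, PSAT1 and ASNS in its upper tail.

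The order of the transcripts by level differed between the groups. In control SHMT2 was highest at 301 ± 9.41 TPM (SD, n = 3, as in the rest of this paragraph), followed by MTHFD1 at 154 ± 2.90, MTHFD2 at 141 ± 6.66, PHGDH at 131 ± 4.86 and PSAT1 at 125 ± 6.62 TPM. PHGDH and PSAT1 overlapped between libraries, and the lowest MTHFD2 value of 134.6 TPM was close to the highest PHGDH value of 133.8 TPM. MTHFD1L at 66.9 ± 2.01, ASNS at 57.3 ± 2.46, SHMT1 at 47.7 ± 1.11 and PSPH at 40.7 ± 1.38 TPM came next, without overlap between neighbours. In ES-Cu PSAT1 was highest at 328 ± 14.4 TPM, ahead of MTHFD2 at 259 ± 4.997 and SHMT2 at 256 ± 8.28 TPM, whose libraries overlapped. ASNS moved up 3 places, to 195 ± 6.54 TPM, above PHGDH at 160 ± 2.43 and MTHFD1 at 104 ± 5.94 TPM. MTHFD1L followed at 74.7 ± 6.03 TPM, PSPH at 28.6 ± 1.80 and SHMT1 at 23.2 ± 1.22 TPM. ALDH1L2 was last in both groups. PSAT1 made up 11.7% of the summed TPM of the 10 genes in control and 22.9% in ES-Cu, and ASNS 5.38% and 13.6%, while SHMT2 went from 28.2% to 17.9% and MTHFD1 from 14.4% to 7.28%.

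The mitochondrial enzymes of the folate pathway gained on their cytosolic counterparts in each pair compared. A ratio of transcripts within a library is not changed by a factor applied to the whole library, but quantile normalization can change it. SHMT2/SHMT1 was 6.37, 6.30 and 6.22 in control and 10.8, 11.2 and 11.2 in ES-Cu, a difference of 0.81 ± 0.020 (SE) in the log2 ratio. MTHFD2/MTHFD1 went from 0.902, 0.943 and 0.892 to 2.29, 2.64 and 2.55, a difference of 1.45 ± 0.068 in the log2 ratio, so that the cytosolic transcript was the more abundant one in each control and the mitochondrial one in each ES-Cu library. MTHFD1L/MTHFD1 went from 0.447, 0.422 and 0.432 to 0.721, 0.684 and 0.742, a difference of 0.72 ± 0.042. The groups did not overlap in any of these 3 ratios (exact permutation p = 0.1 for each and 0.1 after Benjamini-Hochberg adjustment over the 3, two-sided). MTHFD2/MTHFD1 and MTHFD1L/MTHFD1 share their denominator. Under quantile normalization, an alternative chosen after seeing the data, the differences were 0.55, 1.41 and 0.80 in the same order (exact permutation p = 0.1 for each, two-sided). In the deposited TPM the parts of these ratios had log2 fold changes of -0.23 (SHMT2) and -1.01 (SHMT1), 0.88 (MTHFD2) and -0.56 (MTHFD1). Summed TPM was 511 ± 11.5 in control and 593 ± 10.1 in ES-Cu (SD, n = 3) for SHMT2, MTHFD2, MTHFD1L and ALDH1L2, and 202 ± 2.71 and 127 ± 7.16 for SHMT1 and MTHFD1.

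**Figure D4:**
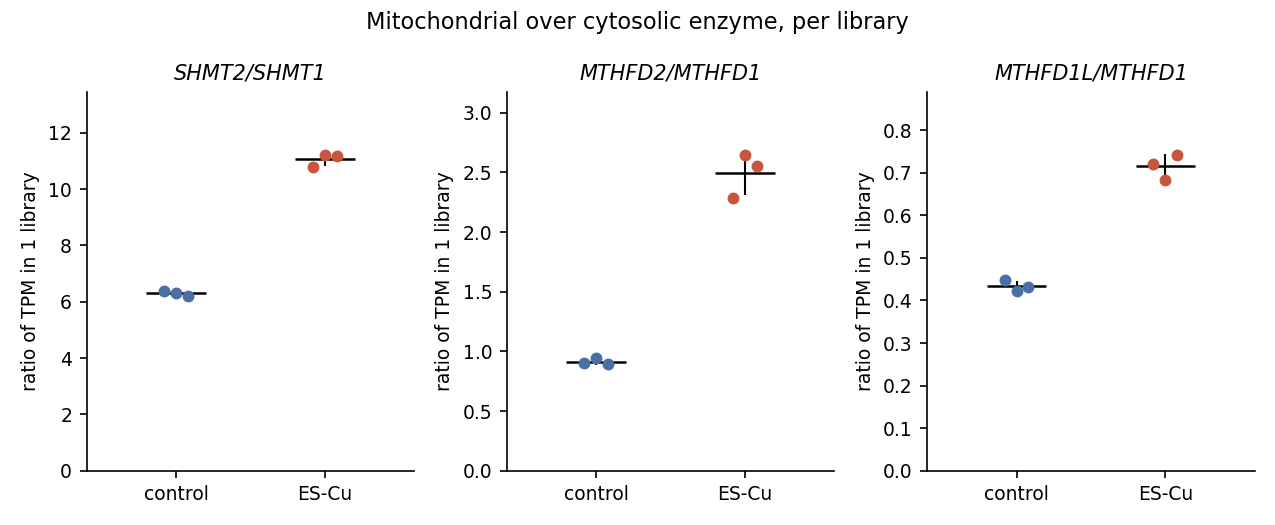
Ratio of TPM of the mitochondrial to the cytosolic enzyme in each library (points), with mean and ± 1 SD, on linear axes from 0. All ES-Cu libraries lie above all controls in each panel, and MTHFD2/MTHFD1 crosses from below 1 to above 2.

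Around these genes, 4 carriers of neutral amino acids rose. The counts of each list below stand beside 13.5% of all tested genes that rose and 31.2% that fell in all 3 scalings, and beside 13.6% called higher and 70.0% called lower in the deposited TPM. Of 12 tested carriers of folate and serine, 5 rose and 3 fell in all 3 scalings (5 called higher and 6 lower in the deposited TPM; median log2 fold change -0.14). SLC38A1, which imports glutamine and other small neutral amino acids, rose from 49.0 ± 0.0907 to 106 ± 8.48 TPM (SD, n = 3). SLC38A2 (log2 fold change 0.67) and the exchanger SLC1A5 (0.67) rose as well, as did SLC1A4 (0.40) and the mitochondrial folate carrier SLC25A32 (0.26), which were named after their values were seen. SFXN3, a sideroflexin of the family that carries serine into mitochondria, fell from 35.6 ± 1.68 to 9.35 ± 0.948 TPM. Its relative SFXN2 (-1.34) and the proton-coupled folate transporter SLC46A1 (-1.40) also fell. SFXN1 of the same family, outside the naming rule, was more abundant in control than SFXN3 or SFXN2, with a mean of 93.6 TPM. SFXN1 was called lower in the deposited TPM (-0.55) but not after median scaling (0.0045, adjusted p = 0.951, limma-trend). The family thus did not fall as a whole.

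Of 13 tested other folate and glycine enzymes, 7 fell and 1 rose in all 3 scalings (1 called higher and 11 lower in the deposited TPM; median -0.83). MTFMT, which formylates the mitochondrial initiator tRNA, fell from 14.1 ± 1.86 to 6.08 ± 1.15 TPM (SD, n = 3), a log2 fold change of -1.10. TYMS, the thymidylate synthase, had a log2 fold change of -0.98 and the one riser was FTCD, at 0.653 ± 0.0808 and 1.68 ± 0.402 TPM; both were named after their values were seen. In purine synthesis all 13 genes were called lower in the deposited TPM, with a median of -0.58, close to that of all tested genes. In all 3 scalings 4 of them fell, near the 31.2% of all tested genes, and 0 rose: IMPDH1 (-1.12), PRPS2 (-0.84), ADSS2 (-0.80) and, outside the naming rule, PFAS (-0.68). After median scaling the median of the purine list was -0.026.

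Of 8 tested genes of the methionine cycle and transsulfuration, 2 rose and 2 fell in all 3 scalings (2 called higher and 4 lower in the deposited TPM; median -0.13). CTH, which makes cysteine from cystathionine, rose from 7.59 ± 1.43 to 13.01 ± 0.960 TPM (SD, n = 3), and MAT2A, which makes S-adenosylmethionine, had a log2 fold change of 0.42. Methionine synthase, MTR (-1.28), and the regulatory subunit gene MAT2B (-0.79) fell. Of 12 tested genes for proline, aspartate and alanine synthesis, 2 rose and 4 fell, near the 13.5% and 31.2% of all tested genes (2 called higher and 10 lower; median -0.39). GOT1, the cytosolic aspartate aminotransferase, rose from 112 ± 8.42 to 163 ± 2.63 TPM, and GPT2 had a log2 fold change of 0.49. The mitochondrial GOT2, outside the naming rule, was at -0.38 in the deposited TPM and at 0.17 after median scaling. The proline synthesis genes PYCR3 (-1.26) and, outside the naming rule, ALDH18A1 (-0.73) fell, as did OAT (-0.82). Of 9 tested genes listed under use or breakdown of serine and asparagine, 4 fell, beside 31.2% of all tested genes, and 0 rose. In the deposited TPM 0 were called higher and 6 lower, beside 70.0% called lower (median -0.62). The 4 that fell were SPTLC3 (-1.85), SDSL (-1.07), ALDH7A1 (-1.02) and, outside the naming rule, the serine racemase gene SRR (-0.98). ALDH7A1 stands in this list although its enzyme acts on neither serine nor asparagine.

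Regulators of these genes were split. ATF4 rose from 234 ± 2.61 to 390 ± 10.9 TPM (SD, n = 3; log2 fold change 0.73, adjusted p = 1.83e-08, limma-trend), and its partner gene DDIT3, which encodes CHOP, from 37.6 ± 1.39 to 239 ± 6.86 TPM. NFE2L2, which encodes NRF2, had a log2 fold change of 0.37. Among the kinases of eIF2alpha, which raise ATF4 translation, EIF2AK3 (PERK) rose (0.53), while EIF2AK4 (GCN2, the sensor of uncharged tRNA) fell (-1.19), as did EIF2AK1 (HRI), at -0.92. EIF2AK2 was at -0.56 and was not called after median scaling (-0.028, adjusted p = 0.716, limma-trend). MYC (0.13, adjusted p = 0.0737) and EIF2S1, the alpha subunit of eIF2 itself (0.022, adjusted p = 0.695, limma-trend), did not pass the test in the deposited TPM, and both were called higher in the other 2 scalings. Without control replicate 1 MYC was called (0.19, adjusted p = 0.0125, limma-trend). ATF5 stood at -0.30 in the deposited TPM and at 0.18 (adjusted p = 0.101, limma-trend) after median scaling.

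**Figure D5:**
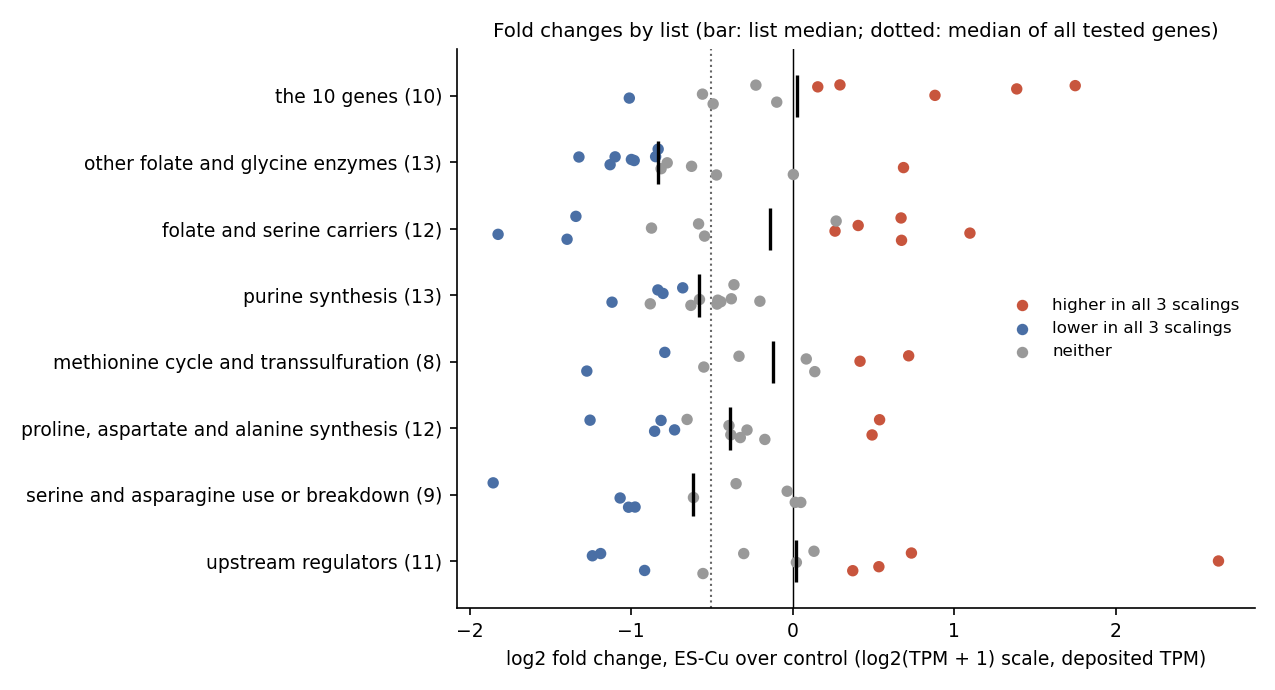
Log2 fold change in the deposited TPM of each tested gene (points) in the 10 genes and 7 further lists, with the number tested in parentheses, the list median as a black bar and the median of all tested genes as a dotted line. The 10 genes and the regulators have medians of 0.03 and 0.02, above all other lists shown, and other folate and glycine enzymes have the lowest median, -0.83.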

How the data were processed

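Per the labels' protocols, 6 CAL-27 libraries were read from one end for 50 bases on a BGISEQ-500. The authors deposited TPM, and the listed genes of every library add up to the same total. The submitters' processing notes list HISAT and Bowtie2; the quantification tool, strand setting and annotation are not given in the sources used here. GRCm38.p6, the build in those notes, is of mouse, although the genes are human, so no coordinates of expression features are given. Promoter coordinates belong to RefSeq.

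Genes averaging 1 TPM or more over the 6 libraries were tested with limma 3.58.1 in R 4.3.3 (log2(TPM + 1), mean-variance trend, two-sided p, Benjamini-Hochberg adjustment over all tested genes, threshold 0.05, no replicate block), and the code was tested on simulated data. Log2 ratios and summed TPM were compared by exact permutation. Alternatives were other scalings, pseudocounts of 0.1 and 0.5, other filters, no trend, a replicate block and the omission of single libraries. Depth is unknown, so no counting error is given. GENCODE 29 lists 7 pseudogenes named for MTHFD2, 4 each for PSAT1 and ASNS, and 1 each for PSPH, SHMT1 and MTHFD1. These pseudogenes are absent from the deposited expression table, and short reads from them could be shared with the 6 genes.

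The members and lists were chosen with earlier results of these data known. Named were all 10 members, the regulators listed, and from each other list up to 3 genes per direction with the largest log2 fold change among those called in all 3 scalings and averaging 5 TPM or more in a group. Some genes that this rule takes are not reported here.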

Additional observations from a re-analysis of the deposited data

How the results depend on the processing

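Of 149 fold changes of the 10 genes under alternative settings, 133 kept their sign and call, 10 lost the call and 6 changed sign. ASNS, PSAT1, MTHFD2, PHGDH and SHMT1 kept both under every setting run. The number of the 10 genes called lower was 4 in the deposited TPM, 1 after median-of-ratios scaling and 2 under quantile normalization. Over all tested genes the shares called lower were 70.0%, 35.8% and 39.9% in the same order. Of the 78 tested genes of the other lists, 14 were called higher in the deposited TPM, 32 after median scaling and 24 under quantile normalization. The shares called higher over all tested genes were 13.6%, 38.0% and 31.4%. Called lower were 55 of the 78 in the deposited TPM and 30 after median scaling, beside 70.0% and 35.8% of all tested genes. Signs turned after median scaling for PSPH (0.049), SHMT2 (0.33), ALDH1L2 (0.32) and ATF5 (0.18), under quantile normalization for ALDH1L2 (0.53) and ATF5 (0.29), and with the 20 highest genes removed for ALDH1L2 (0.021). With 1 library left out, ALDH1L2 ranged from -0.21 to 0.018 and EIF2S1 from -0.011 to 0.069, with -0.0035 without control replicate 1. The number called higher was 4 or 5 with any 1 library left out, MTHFD1L being the gene lost. With the replicate number as a block, 5 genes were called higher and 4 lower, as without it, and the 3 log2 ratios were 0.81, 1.45 and 0.72 (exact sign-flip p = 0.25, the smallest that 3 pairs allow). Deviations of same-numbered libraries correlated at -0.034 to 0.021, and those of differently numbered ones at -0.058 to 0.043. No shared effect of the number was seen, but this cannot tell whether same-numbered libraries were handled together. The summed level of the 10 genes was 366 TPM higher in ES-Cu in the deposited TPM and 856 higher after median scaling. TPM keeps no depth, so the counting error of low genes such as ALDH1L2 cannot be given.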

Other observations

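Paralogs of the folate enzymes were low. MTHFD2L, a second mitochondrial methylenetetrahydrofolate dehydrogenase, had 4.37 ± 0.671 TPM without and 4.37 ± 0.514 TPM with ES-Cu (SD, n = 3). In the deposited TPM this was a log2 fold change of 0.0031 (adjusted p = 0.982, limma-trend), beside the rise of MTHFD2. Both alternative scalings called MTHFD2L higher, at 0.46 with the median of ratios and 0.63 with quantiles. MTHFD2 stood at 1.43 and 1.06 there. No direction is given for MTHFD2L. The cytosolic ALDH1L1 was at 0.667 ± 0.153 and 0.553 ± 0.0451 TPM, and GLDC, the decarboxylase of the glycine cleavage system, at 0.177 ± 0.163 and 0.217 ± 0.0950 TPM, both under the minimum for testing.

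Ratios within the pathway, chosen after their values were seen and not tested, also moved. PSAT1/PHGDH went from 0.958 ± 0.0365 to 2.05 ± 0.105 (SD, n = 3), and PSPH/PHGDH from 0.312 ± 0.0101 to 0.179 ± 0.0115, so that the transcripts of consecutive steps of serine synthesis stood in other proportions in ES-Cu. MTHFD2/SHMT2 went from 0.468 ± 0.0304 to 1.01 ± 0.0516. ASNS/PSAT1 changed less, from 0.460 ± 0.0380 to 0.594 ± 0.0198.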
